A study of Mus musculus with 2 samples.

Results

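The 10 genes described are the Notch ligands Dll1, Dll4 and Jag1, the receptors Notch1 and Notch2, the fringe enzymes Mfng and Lfng, the effector Rbpj and the repressors Hes1 and Hes6. They were taken by symbol from the gene column of the count files, and all 10 were found among the 23284 symbols listed. Levels come from RNA-seq of cells sorted for GFP from whole pancreata of NGN3-EGFP mouse embryos of mixed, C57BL6 strain at e15.5, which the title calls endocrine progenitors. There were 2 libraries, replicates 1 and 2 of a single group, with 12495143 and 12043734 counted reads. With a single group there was no comparison between conditions. The results are levels within the sorted cells, the order of the genes, and how far the replicates agreed.

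Notch is a receptor on the cell surface that is cut when a ligand on a neighbouring cell binds it. The freed intracellular part enters the nucleus, joins the DNA-binding protein Rbpj and switches on genes such as Hes1. In the embryonic pancreas Hes1 is known to repress Neurog3, the factor that starts endocrine differentiation. Neurog3-positive cells are known to carry ligands such as Dll1 and so to hold back their neighbours, a process called lateral inhibition. Fringe enzymes add sugars to Notch receptors and so change which ligands bind them. Hes6 is a relative of Hes1 that is known to oppose Hes1 rather than to act downstream of Notch.

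The sort label was checked against marker genes. Neurog3 was at 736 and 551 CPM (read counts scaled to library size) in replicates 1 and 2, and Insm1, another early endocrine factor, at 1028 and 872 CPM. All 8 endocrine progenitor markers, these 2 among them, reached 1 CPM in both libraries, with sums of 9295 and 9429 CPM. Of the 8, 4 were higher in replicate 1 and 4 in replicate 2. The labels do not say how the reporter was built, which bears on the Neurog3 level. Sox9, a factor of the trunk epithelium from which endocrine cells arise, was at 88.2 and 87.9 CPM. Of 8 duct and trunk markers 6 reached 1 CPM in both libraries, with sums of 674 and 620 CPM. Of 8 acinar markers 7 did, with sums of 2081 and 1507 CPM. Of 6 neural crest and glia markers 2 did, with sums of 235 and 109 CPM. Of 12 endothelial markers 2 reached 1 CPM in both libraries, and the summed level of the list was 38.3 CPM in replicate 1, against 20.7 CPM in replicate 2. Of 10 mesenchymal markers 4 did, with sums of 369 and 101 CPM. Of 8 immune markers 2 did, with sums of 56.9 and 18.4 CPM, though 3 were higher in replicate 1 and 4 in replicate 2. The defining immune genes Ptprc and Csf1r had 0 and 1 reads in replicate 1 and 1 and 4 in replicate 2. Each library pools many cells, so fewer cells of a type and less RNA per cell cannot be told apart, and no level shows which cells held a transcript.

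The RefSeq promoter table, on build GRCm38.p6, held a window for 8 of the 10 genes, all but Mfng and Hes1. The following 4 are shown because they range from several matches to none of the motifs searched. Capitals mark E-boxes, CANNTG, which bind basic helix-loop-helix factors such as Neurog3, and the core of the Rbpj motif, TGGGAA, both searched on both strands. Each run ends at the RefSeq transcription start or, for Lfng, where the annotated first exon begins. The Dll1 window lies upstream of the more distal of its 2 RefSeq starts, on the minus strand. That start is 956 bases from the nearest Dll1 start in the GENCODE M21 basic annotation. The window overlaps an exon of the long noncoding RNA A930024N18Rik. Hes6 also has 2 RefSeq starts, and its window is that of the proximal one.
Dll1, chr17:15376933-15377182, minus strand: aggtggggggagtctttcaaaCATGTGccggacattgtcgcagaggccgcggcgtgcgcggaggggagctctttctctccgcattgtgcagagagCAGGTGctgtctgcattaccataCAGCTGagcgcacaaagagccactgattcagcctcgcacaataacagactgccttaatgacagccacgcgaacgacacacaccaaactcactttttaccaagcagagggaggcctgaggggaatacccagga
Dll4, chr2:119325534-119325783, plus strand: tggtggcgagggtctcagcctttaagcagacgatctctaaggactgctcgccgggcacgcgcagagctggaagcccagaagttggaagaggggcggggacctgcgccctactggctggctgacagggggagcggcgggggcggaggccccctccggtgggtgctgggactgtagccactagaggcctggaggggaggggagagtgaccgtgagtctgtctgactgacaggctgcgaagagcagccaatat
Lfng, chr5:140607091-140607319, plus strand: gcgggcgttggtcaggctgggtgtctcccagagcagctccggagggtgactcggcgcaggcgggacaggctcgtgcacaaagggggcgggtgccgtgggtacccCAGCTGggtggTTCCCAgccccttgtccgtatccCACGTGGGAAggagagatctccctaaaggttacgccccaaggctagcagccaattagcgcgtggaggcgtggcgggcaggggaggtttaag
Hes6, chr1:91413223-91413472, minus strand: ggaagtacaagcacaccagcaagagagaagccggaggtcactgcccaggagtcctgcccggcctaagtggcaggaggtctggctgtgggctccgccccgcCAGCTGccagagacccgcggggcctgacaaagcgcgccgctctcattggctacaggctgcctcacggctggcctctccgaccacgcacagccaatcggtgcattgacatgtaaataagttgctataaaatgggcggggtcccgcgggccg

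The Dll1 window shown held 3 E-boxes, and the window at its other start held 1. The Hes6 window shown held 1, which begins 150 bases before the start, and the window at its more distal start held 3. The Dll4 window held neither motif. The Lfng window held 2 E-boxes and 2 Rbpj cores in opposite orientation, 1 of which overlaps the second E-box. E-boxes are common: 66.2% of the 32851 windows of 250 bases in the table held at least 1. The Rbpj core was found in 21.6%. A match describes letters in a window and does not show that a factor binds there.

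Of the 10 genes, 9 reached 1 CPM in both libraries, against 45.7% of all symbols listed, and Lfng was the exception. Across the genes the mean levels fell into 3 bands once they were divided by exon length, which is needed to compare genes with each other. Mfng, Hes1 and Hes6 averaged 38.1 ± 6.90, 32.4 ± 7.88 and 30.5 ± 5.65 CPM per kb of exon (SD, n = 2 each). These 3 genes lay at the 88.4th percentile or higher of all genes with an exon length in both libraries. Dll1, Dll4, Rbpj, Notch1, Jag1 and Notch2 averaged between 2.21 and 7.40 CPM per kb. Lfng was last in both libraries, at 0.52 ± 0.24 CPM per kb (SD, n = 2), and its 0.68 in replicate 2 was near Notch2.

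Of the 9 pairs of neighbours in this order of arithmetic means, only 2 had ranges over the libraries that did not overlap: Hes6 above Dll1, and Notch2 above Lfng. Compared within each library, 6 of the 15 pairs among the middle 6 genes kept the same order in both: Dll4 above Notch1, Jag1 and Notch2, Rbpj above Jag1 and Notch2, and Notch1 above Jag1. Among the upper 3 genes, Mfng was above Hes6 in both libraries, and the other 2 pairs changed order. Dll1 ranked 9th of 10 per kb in replicate 1 and 4th in replicate 2. Dll4, Notch2 and Rbpj ranked 5th, 6th and 4th in replicate 1 and 5th, 9th and 7th in replicate 2. With 2 libraries, an exact permutation test of an order cannot give a p below 0.5.

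**Figure D1:**
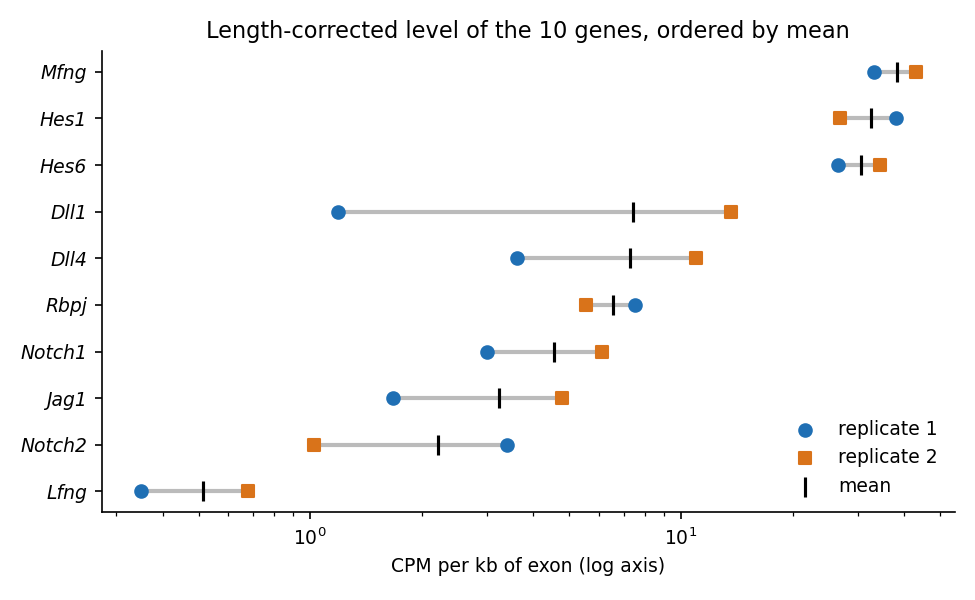
Length-corrected level of each gene, in CPM per kb of exon on a log axis, in replicate 1 (circles) and replicate 2 (squares), with the mean as a tick. Mfng, Hes1 and Hes6 lie above the other 7 genes in both libraries, and the grey bar is longest for Dll1.

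Transcripts of the 3 ligands were scarcer in replicate 1 than in replicate 2. Dll1, the ligand tied to Neurog3-positive cells, had 53 reads, or 4.26 CPM (exact Clopper-Pearson 95% interval 3.19 to 5.57), in replicate 1, against 590 reads, or 48.8 CPM (44.9 to 52.9), in replicate 2. Dll4, known mainly from sprouting blood vessels, was at 13.5 CPM (11.5 to 15.7) in replicate 1, against 41.1 CPM (37.6 to 44.9) in replicate 2. Jag1, a ligand of the Jagged type, was at 9.41 CPM (7.78 to 11.3) in replicate 1, against 26.9 CPM (24.0 to 30.0) in replicate 2. The intervals of the libraries did not overlap for any of the 3, and the intervals cover counting error only.

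The ligands differed between the libraries by a two-sided exact binomial test, adjusted by Benjamini-Hochberg over all 13416 genes with at least 10 reads. The log2 ratio of replicate 1 over replicate 2 was -3.52 for Dll1 (adjusted p = 6.5e-118), -1.61 for Dll4 (adjusted p = 3.95e-40) and -1.51 for Jag1 (adjusted p = 1.34e-24). The test compares these libraries and not conditions, and 85.8% of all genes tested also passed it. Summed, the 3 ligands were at 27.2 CPM in replicate 1, against 117 CPM in replicate 2, a 4.30-fold difference. Among the 6762 genes with a mean of 10 to 100 CPM, 369 genes, or 5.46%, had a larger ratio in either direction than Dll1. For Dll4 and Jag1 these shares were 25.3% and 27.5%.

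The place of Dll1 among the ligands depended on the library, while Dll4 was above Jag1 in both. Per kb of exon, Dll1 made up 18.4% of the 3 ligands in replicate 1 and 46.4% in replicate 2, Dll4 55.7% and 37.3%, and Jag1 25.9% and 16.3%. The log2 ratio per kb of Dll1 over Dll4 was -1.60 (95% interval -2.07 to -1.15) in replicate 1 and 0.31 (0.14 to 0.49) in replicate 2. That of Dll1 over Jag1 was -0.49 (-0.99 to -0.01) in replicate 1 and 1.51 (1.31 to 1.71) in replicate 2. No direction of Dll1 against the other ligands can be given for the sorted population.

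Overlapping genes limit what the Dll1 and Dll4 counts mean. Exons of A930024N18Rik lie over Dll1 on the opposite strand, and 83.7% of the 25-base words of Dll1 transcripts were its own, that is, absent from transcripts of other genes. A930024N18Rik is not among the symbols analysed here. Since the strand setting of the counting is not given in the sources used here, reads of the pair cannot be told apart. Gm14207 overlaps Dll4 on the opposite strand and had 43 reads in replicate 1 and 23 in replicate 2, the other way round from Dll4.

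Endothelial cells are another known source of Dll4, Jag1 and Notch1. Their defining markers Pecam1 and Kdr had 1 and 1 read in replicate 1 and 8 and 0 reads in replicate 2. Cdh5 had 194 reads in replicate 1 and 2 in replicate 2. Of the 12 markers 5 were higher in replicate 1 and 7 in replicate 2. The part of endothelial cells in the levels of Dll4, Jag1 and Notch1 was not tested.

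**Figure D2:**
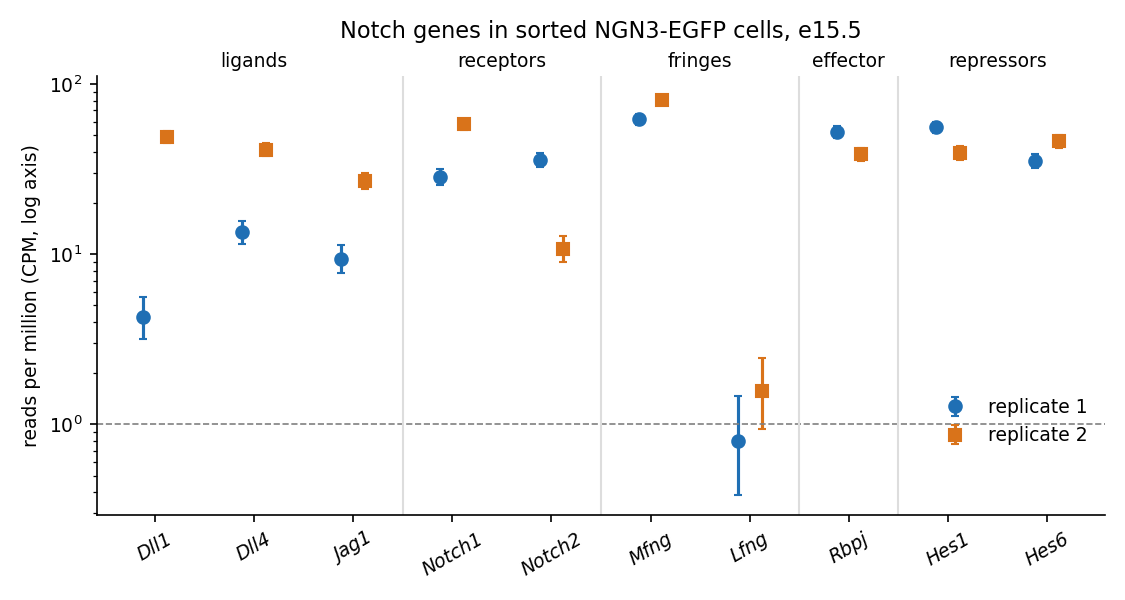
CPM of the 10 genes on a log axis in replicate 1 (circles) and replicate 2 (squares), grouped by role, with exact 95% intervals for counting error. The ligands are lower in replicate 1, at 4.26 to 13.5 CPM, than in replicate 2, at 26.9 to 48.8 CPM, and the dashed line marks 1 CPM, the level used to call a gene detected.

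The receptors moved in opposite directions between the libraries. Notch1 was at 28.4 CPM (25.5 to 31.5) in replicate 1, against 57.9 CPM (53.7 to 62.4) in replicate 2. Notch2, also known from the embryonic pancreatic epithelium, was at 35.7 CPM (32.4 to 39.2) in replicate 1, against 10.7 CPM (8.98 to 12.8) in replicate 2. The log2 ratio of replicate 1 over replicate 2, with the same exact binomial test, was -1.03 for Notch1 (adjusted p = 7.0e-29) and 1.73 for Notch2 (adjusted p = 1.28e-38).

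Per kb of exon, Notch1 and Notch2 were close in replicate 1, where their log2 ratio was -0.18 with an interval that includes 0 (-0.39 to 0.02). In replicate 2 Notch1 was 5.97-fold above Notch2, with a log2 ratio of 2.58 (2.31 to 2.86). Their summed level was 64.1 CPM in replicate 1, against 68.7 CPM in replicate 2. That sum, which was chosen after the values were seen, differed by 1.07-fold, less than either receptor alone. Antisense transcripts overlap Notch1, and 85.8% of its 25-base words were its own.

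Like Notch2, mesenchymal transcripts were higher in replicate 1. So were the sums of the duct and trunk, acinar, endothelial, immune, and neural crest and glia lists. The endocrine progenitor sum was not, at 9295 CPM in replicate 1, against 9429 CPM in replicate 2. Of the 10 mesenchymal markers 9 were higher in replicate 1, among them the defining genes Col1a1, at 77.2 CPM in replicate 1, against 27.5 CPM in replicate 2, and Pdgfra, at 10.5 and 0.25 CPM. The part of mesenchymal or of these other cells in the Notch2 level was not tested.

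**Figure D3:**
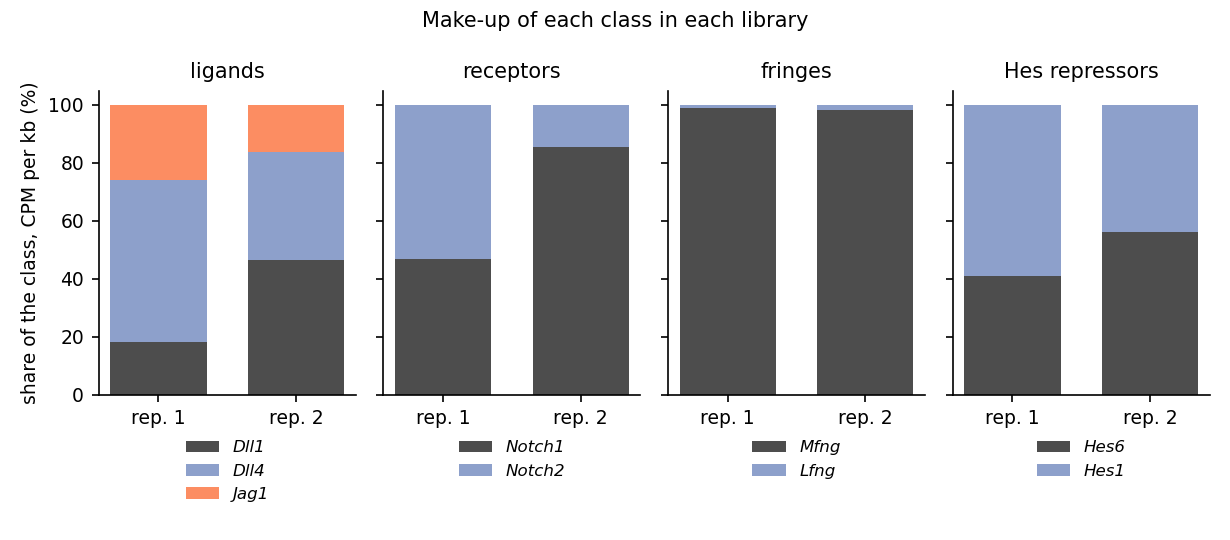
Share of each gene in its class, as a percentage of the summed CPM per kb of exon, in replicate 1 (left bar) and replicate 2 (right bar) of each panel. Notch1 makes up 46.8% of the 2 receptors in replicate 1 and 85.6% in replicate 2, while Mfng makes up over 98% of the 2 fringes in both.

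Mfng was the dominant fringe gene in both libraries. Mfng was at 62.0 CPM (57.7 to 66.5) in replicate 1, against 80.2 CPM (75.2 to 85.4) in replicate 2. Lfng had 10 reads, or 0.80 CPM (0.39 to 1.48), in replicate 1, against 19 reads, or 1.57 CPM (0.95 to 2.45), in replicate 2. Per kb of exon Mfng was 95.3-fold above Lfng in replicate 1, with a log2 ratio of 6.57 (5.69 to 7.64), and 63.1-fold in replicate 2, with a log2 ratio of 5.98 (5.33 to 6.72). This was the only pair of the 5 compared within a class whose direction was the same in both libraries. Dll4 above Jag1, a pair not among those 5, also held in both.

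Nearly all 25-base words of Mfng and Lfng, 99.7% and 99.6%, were their own, so shared sequence leaves little room for reads to be split between them. Mfng was also closer between the libraries than any of the ligands. The log2 ratio of replicate 1 over replicate 2 was -0.37 for Mfng (adjusted p = 1.43e-07 by the exact binomial test). Lfng, at -0.97, was the only member not past the threshold (adjusted p = 0.108 by the same exact test), with few reads in each library.

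Rbpj, the DNA-binding partner of cleaved Notch, was at 52.2 CPM (48.3 to 56.4) in replicate 1, against 38.6 CPM (35.2 to 42.3) in replicate 2. Its log2 ratio of replicate 1 over replicate 2 was 0.44 (adjusted p = 8.74e-07 by the exact binomial test). Of its 25-base words 78.7% were its own, and the pseudogene Rbpj-ps3 is among the genes that share the rest, so part of its count is uncertain.

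Hes1 and Hes6 transcripts were present at similar levels. Hes1, the Notch target that represses Neurog3, was at 55.8 CPM (51.7 to 60.1) in replicate 1, against 39.4 CPM (36.0 to 43.1) in replicate 2. Hes6 was at 35.4 CPM (32.1 to 38.8) in replicate 1, against 46.0 CPM (42.3 to 50.0) in replicate 2. In the same exact binomial test the log2 ratio of replicate 1 over replicate 2 was 0.50 for Hes1 (adjusted p = 8.09e-09) and -0.38 for Hes6 (adjusted p = 5.3e-05). Neither gene shared a 25-base word with another.

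Per kb of exon Hes6 was below Hes1 in replicate 1, with a log2 ratio of -0.52 (-0.70 to -0.35), and above it in replicate 2, with 0.36 (0.18 to 0.54). The mean of -0.08 lies well within the SD of 0.62 between the libraries (n = 2), so neither gene was shown to be the higher. Their summed level, chosen after the values were seen, was 91.2 CPM in replicate 1, against 85.5 CPM in replicate 2, a 1.07-fold difference.

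Over the 10 genes, 5 differed over 2-fold between the libraries at an adjusted p under 0.05 by the exact binomial test, against 48.2% of all genes tested. Dll1, Dll4, Jag1 and Notch1 were higher in replicate 2, a direction called for 25.9% of genes, and Notch2 was higher in replicate 1, a direction called for 22.3%. The 9 genes other than Lfng had means of 10 to 100 CPM, where 43.1% of genes were called. The median absolute log2 ratio was 0.998 for the 10 genes and 0.963 for all genes tested. For genes with a mean of 10 to 100 CPM it was 0.845. The median of the 10 genes was thus close to that of genes in general and above that of genes of like level. The upper 3 genes per kb and Rbpj each differed by less than 1.5-fold between the libraries.

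**Figure D4:**
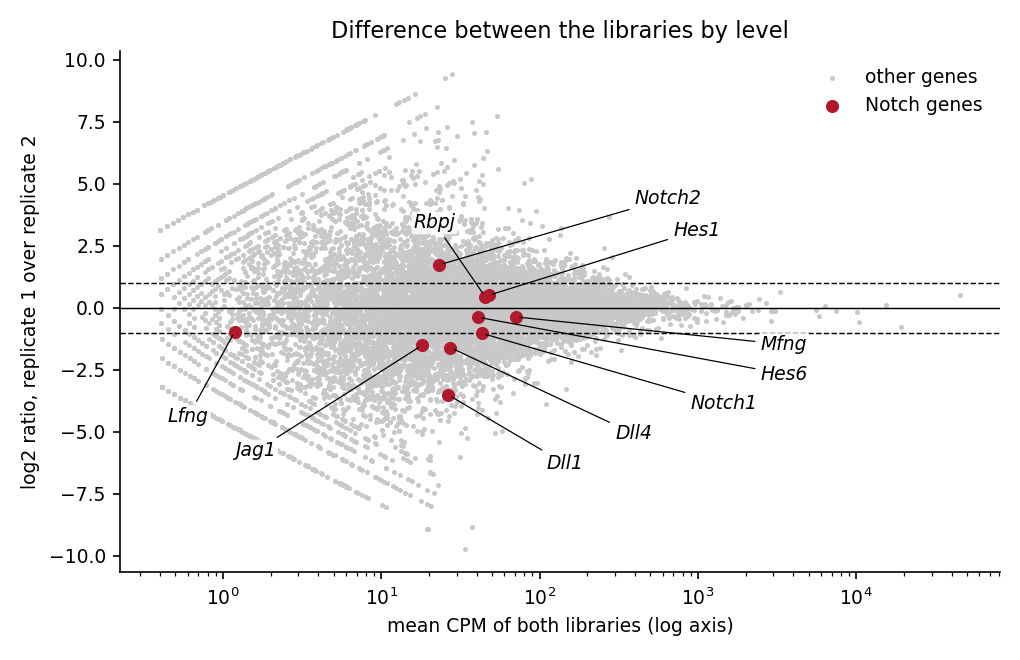
Log2 ratio of replicate 1 over replicate 2 against mean CPM on a log axis, for 12218 genes with reads in both libraries and at least 10 in all, with the 10 Notch genes in red and dashed lines at a 2-fold difference. The Notch genes lie within the grey cloud of genes of like level, with Dll1 lowest at -3.52 and Notch2 highest at 1.73.

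A wider list of 49 other Notch pathway genes gave the surroundings of the 10. Of these 35 reached 1 CPM in both libraries, against 45.7% of all symbols listed, and 4 had no read in either. Of the 42 with at least 10 reads, 20 differed over 2-fold by the exact binomial test, 11 higher in replicate 1 and 9 higher in replicate 2, against 48.2% of all genes tested. Their median absolute log2 ratio was 0.92, beside 0.96 for all genes tested.

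Of the machinery that cuts the receptor, Ncstn, the nicastrin subunit of gamma-secretase, lay above both receptors in each library. It averaged 55.1 ± 9.49 CPM per kb (SD, n = 2). Notch1 averaged 4.55 ± 2.20 CPM per kb (SD, n = 2). Of the 9 cleavage genes 7 reached 1 CPM in both libraries, against 45.7% of all symbols listed. By the exact binomial test 3 were over 2-fold higher in replicate 1, a direction called for 22.3% of all genes tested. In replicate 2 1 was higher, a direction called for 25.9%. Named after their values were seen, these were Adam17, Aph1a and Aph1c, higher in replicate 1, and Aph1b, higher in replicate 2. Aph1b had 6 and 49 reads and Aph1c 13 and 0 in replicates 1 and 2, and neither reached 1 CPM in both. Whether Aph1b and Aph1c share sequence was not checked, and the multi-mapping setting was not given, so their opposite directions are uncertain. Of the enzymes that glycosylate the receptor, Poglut1 was at 19.7 and 64.2 CPM and Pofut1 at 37.9 and 20.5 CPM in replicates 1 and 2.

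Genes acting on ligands and receptors were also detected. Mib1, a ubiquitin ligase that ligands need for signalling, was at 95.1 CPM in replicate 1, against 70.3 CPM in replicate 2, and Neurl1b, another, at 90.9 and 44.0 CPM. All 4 genes of that class reached 1 CPM in both libraries, against 45.7% of all symbols listed. Of 8 regulators of the receptor 5 did, led per kb by the ubiquitin ligase Itch, at 114 and 236 CPM, and Dtx3 of the Deltex family, at 39.0 and 41.4 CPM.

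Cofactors in the nucleus were all detected. All 6 coactivators and all 4 corepressors on the list reached 1 CPM in both libraries, against 45.7% of all symbols listed. Ep300, a histone acetyltransferase, was at 389 and 561 CPM in replicates 1 and 2, and Snw1, which binds the Notch complex, at 79.9 and 125 CPM. Spen, a corepressor recruited by Rbpj, was at 239 and 304 CPM. None of these 3 differed over 2-fold. The 4 cofactors that did, named after their values were seen, were Maml2, Kat2b and Ctbp1, higher in replicate 2, and Ctbp2, higher in replicate 1. Such a difference was called for 48.2% of all genes tested. Rbpjl, the acinar relative of Rbpj, was at 30.5 CPM in replicate 1, against 8.51 CPM in replicate 2. The acinar marker list, which includes Rbpjl, summed to 2081 CPM in replicate 1, against 1507 CPM in replicate 2, with the defining genes Cpa1 at 203 and 182 CPM and Ptf1a at 0 and 3 reads, and its part in the Rbpjl level was not tested.

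Other ligands, receptors and fringes varied widely in level. Dlk1, a ligand-like protein without the domain that activates Notch, was at 177 and 112 CPM in replicates 1 and 2, and Dner, a neuronal relative, at 28.7 and 30.8 CPM. The ligands Jag2 and Dll3 were near the detection level, at 1.37 and 2.15 CPM and at 1.29 and 0.33 CPM, and Dlk2 had 0 and 1 reads. Notch3, a receptor of mural cells and mesenchyme, had 219 reads in replicate 1 and 121 in replicate 2, and Notch4, of endothelium, had 0 and 6 reads. The third fringe, Rfng, was at 6.91 and 11.1 CPM, which per kb placed its mean of 4.25 CPM per kb below Mfng and above Lfng.

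The other Hes and Hey repressors were without reads in at least 1 library or far apart between the libraries. Hey1 was at 16.6 CPM in replicate 1, against 1.98 CPM in replicate 2. Heyl had 274 reads in replicate 1 and none in replicate 2, so it was at least 88.8-fold higher in replicate 1 when replicate 2 is set to 3 counts, the one-sided 95% limit for a count of 0. Hes5 had no read in replicate 1 and 10 in replicate 2. Hes2, Hes3, Hes7 and Hey2 had no read in either library, which leaves room for 0.241 CPM in replicate 1 and for 0.248 in replicate 2, the one-sided 95% limits of 3 counts. Hey1, Heyl and Notch3, grouped after their values were seen, were higher in replicate 1. Notch3 differed by 1.76-fold, and 51.6% of genes with a mean of 10 to 100 CPM had a larger ratio in either direction. The mesenchymal sum, 369 and 101 CPM, was also higher in replicate 1, as were those of the other lists except endocrine progenitor. The part of any of these cells in these levels was not tested.

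**Figure D5:**
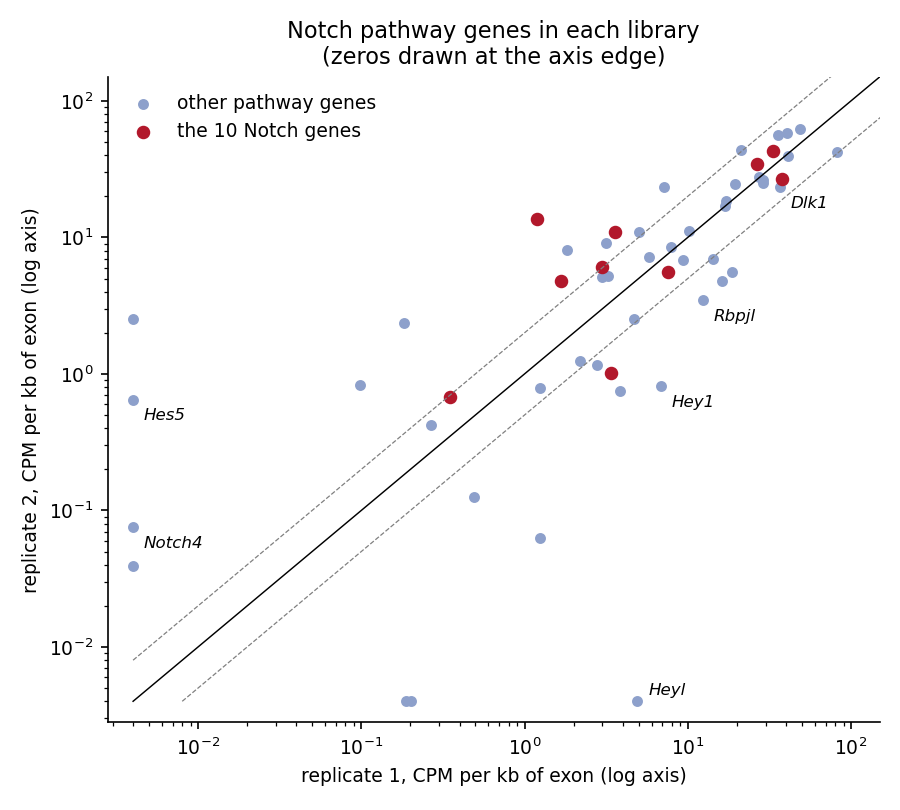
CPM per kb of exon in replicate 1 (x axis) and replicate 2 (y axis), both log axes, for the 10 Notch genes in red and the other pathway genes with a read in blue. The solid line marks equal levels and the dashed lines a 2-fold difference, and genes with no read in a library, such as Heyl with 274 and 0 reads, sit at the axis edge.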

How the data were processed

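Each deposited file lists unnormalized read counts, as whole numbers, by gene symbol, per the file headers and values. FastQC, cutadapt, TopHat2 2.0.4, Cufflinks 2.0.2, DESeq and build mm9 are named in the submitters' processing notes, without role or order. The counting program, annotation, strand and multi-mapping settings were not given in the sources used here. Nothing says that the replicates came from separate litters, so their spread may be technical.

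Counts were converted to CPM with edgeR 4.0.16 (R 4.3.3) TMM factors of 0.9956 and 1.0044. Exon lengths are unions over the GENCODE M21 basic transcripts and were found for 97.9% of symbols. That annotation is on GRCm38, so no mm9 coordinates are given. Libraries were compared by an exact binomial test, two-sided, on the scaled library sizes (scipy 1.17.1), over the 13416 genes with at least 10 reads, with Benjamini-Hochberg adjustment at 0.05. The test was also run on simulated counts with known folds, which varied by counting error alone. That run cannot show how the test behaves where libraries vary beyond counting error. Intervals for levels are exact Clopper-Pearson at 95%, and those for ratios come from the same interval of the pair's reads. Quasi-likelihood tests need groups and were not possible.

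The members, the wider pathway list, the markers and the tests were chosen with earlier results of these data known. Named were the members, every other ligand, receptor, fringe, Hes and Hey gene, and the 2 highest genes per kb of each remaining role, of which some are not reported here. No genes of a like pattern are named, since 2 libraries give each gene a single ratio. Alternatives were column totals, DESeq2 1.42.0 size factors, totals without Rn45s, other limits, filters and lengths, and each library alone. The neural crest and glia list summed to 235 CPM in replicate 1, against 109 CPM in replicate 2, with Sox10 at 0 and 5 reads.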

Additional observations from a re-analysis of the deposited data

How the results depend on the processing

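No paired analysis was possible because the study has a single group. The counts of detected and of differing genes stayed within 1.5 times under other scalings and without a filter on low counts, and the same 5 members were called under all 4 scalings. At an adjusted p under 0.05 alone, 9 members and 33 other pathway genes differed between the libraries, against 85.8% of all genes tested. At over 4-fold 1 member, Dll1, and 10 others did. The share of all genes at that fold was not counted, so these 2 counts have no background. With each library taken alone, 9 to 10 members and 37 to 39 other pathway genes reached 1 CPM. Of all 23284 symbols listed, 11712 did so in replicate 1 and 12017 in replicate 2. The log2 ratio per kb over the libraries taken alone ran from -0.49 to 1.51 for Dll1 over Jag1, from -1.60 to 0.31 for Dll1 over Dll4, from -0.18 to 2.58 for Notch1 over Notch2, from -0.52 to 0.36 for Hes6 over Hes1 and from 5.98 to 6.57 for Mfng over Lfng. Without length correction the mean of Dll1 over Jag1 was -0.14, against 0.51 per kb, because Jag1 has the longer exons. With the exons of all annotated transcripts Mfng over Lfng was 5.79, against 6.28. Of the 10 genes Lfng had the fewest reads in each library, 10 and 19.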
